A study of Mus musculus with 19 samples.

Results

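A set of accessible chromatin regions was more open with tumour necrosis factor (TNF) at both 24 h and 72 h of astrocyte differentiation. Members were chosen by group means. A peak was one if its mean normalised read count with TNF was at least 2 times the untreated mean at 24 h and again at 72 h, and if both TNF means were at least 50. Of 90154 peaks, 1356 (1.5%) met this rule. Among the 58363 peaks with both TNF means of at least 50, they made up 2.32%. In ATAC-seq, the assay used, a transposase places sequencing adapters where chromatin is open. The 19 libraries came from wild type C57BL/6J mouse cells. Neural stem cells of the ventricular zone at embryonic day 14 were grown as neurospheres (NSPs) with EGF (3 libraries). They were then differentiated in medium with serum for 24 h without TNF (3) or with it (3), for 72 h without TNF (3) or with it (3), and for 1 week without TNF (4). TNF was given at 50 ng/ml. The labels do not say which libraries came from separate animals or cultures, so the spread between libraries may be technical. A TNF group at 1 week was not analysed here.

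TNF is a cytokine released in inflamed tissue. Through its receptors it activates the IκB kinase complex, IκB proteins are degraded, and NF-κB dimers enter the nucleus and bind κB sequences in promoters and enhancers. NF-κB induces chemokines, adhesion molecules and its own inhibitors, among them Nfkbia, Tnfaip3 and Tnip1, which close a feedback loop. JNK and p38 signalling downstream of the same receptors acts on AP-1 factors. In astrocytes, inflammatory cytokines are known to induce reactive genes such as C3 and Lcn2.

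Few of the members lay at a promoter. A RefSeq start window, defined as 250 bases before to 50 after a transcription start, was covered over at least 150 bases by 23 members (1.70%), against 10.9% of all peaks. Of these 23 start windows, 7 (30.4%) held the κB consensus motif on either strand. Over all 32851 RefSeq start windows the share was 4.51%, and over the 9833 under any peak it was 5.17%. The upstream 250 bases of these 7 are printed here because the match lies within the region that opened, followed by those of C3, a reactive astrocyte gene whose upstream bases held no match to the 2 κB forms or to AP-1. Sequences are from RefSeq (GRCm38.p6), run 5′ to 3′ along the gene and end at the base before the start. Capitals mark matches to the κB consensus, its shorter form GGANTTTCC or the AP-1 motif TGANTCA. The windows are chr11:54962941-54963190 (minus strand), chr3:83841609-83841858 (minus), chr5:92348890-92349139 (minus), chr9:5308599-5308848 (plus), chr5:7960222-7960471 (plus), chr3:39159682-39159931 (minus), chr1:131733669-131733918 (minus) and chr17:57228137-57228386 (minus).
Tnip1: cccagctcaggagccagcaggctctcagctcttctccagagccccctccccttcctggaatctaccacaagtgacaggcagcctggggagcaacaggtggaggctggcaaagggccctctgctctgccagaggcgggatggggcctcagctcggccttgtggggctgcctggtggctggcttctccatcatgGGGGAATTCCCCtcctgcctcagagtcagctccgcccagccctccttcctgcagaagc
Tlr2: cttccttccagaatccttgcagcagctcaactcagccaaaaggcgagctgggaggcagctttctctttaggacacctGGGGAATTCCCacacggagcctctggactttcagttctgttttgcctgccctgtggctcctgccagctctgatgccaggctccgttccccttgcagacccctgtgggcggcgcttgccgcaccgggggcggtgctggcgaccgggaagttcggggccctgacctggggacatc
Cxcl10: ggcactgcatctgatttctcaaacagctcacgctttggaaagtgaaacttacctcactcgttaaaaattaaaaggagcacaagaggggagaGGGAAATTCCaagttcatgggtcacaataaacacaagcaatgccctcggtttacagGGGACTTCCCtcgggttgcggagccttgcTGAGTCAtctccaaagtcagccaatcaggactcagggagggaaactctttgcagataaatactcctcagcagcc
Casp4: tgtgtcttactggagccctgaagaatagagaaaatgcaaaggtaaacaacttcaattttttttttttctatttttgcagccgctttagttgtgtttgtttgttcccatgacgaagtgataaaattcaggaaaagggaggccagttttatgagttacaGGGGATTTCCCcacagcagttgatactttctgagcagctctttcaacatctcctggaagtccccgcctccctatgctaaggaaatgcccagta
Steap4: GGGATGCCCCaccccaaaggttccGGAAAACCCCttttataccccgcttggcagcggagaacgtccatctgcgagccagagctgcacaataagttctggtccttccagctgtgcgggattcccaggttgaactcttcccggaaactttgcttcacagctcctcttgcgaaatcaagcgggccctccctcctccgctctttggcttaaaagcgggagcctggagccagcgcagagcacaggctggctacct
Gm30011: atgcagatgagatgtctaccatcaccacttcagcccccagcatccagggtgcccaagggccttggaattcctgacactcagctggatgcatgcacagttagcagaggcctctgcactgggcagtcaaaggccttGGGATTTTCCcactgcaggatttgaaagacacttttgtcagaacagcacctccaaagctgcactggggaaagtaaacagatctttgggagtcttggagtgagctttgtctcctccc
Gm30104: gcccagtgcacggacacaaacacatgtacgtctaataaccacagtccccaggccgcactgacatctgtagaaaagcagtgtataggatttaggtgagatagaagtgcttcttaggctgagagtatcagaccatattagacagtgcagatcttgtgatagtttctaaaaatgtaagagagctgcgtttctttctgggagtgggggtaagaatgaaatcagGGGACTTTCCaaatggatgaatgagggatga
C3: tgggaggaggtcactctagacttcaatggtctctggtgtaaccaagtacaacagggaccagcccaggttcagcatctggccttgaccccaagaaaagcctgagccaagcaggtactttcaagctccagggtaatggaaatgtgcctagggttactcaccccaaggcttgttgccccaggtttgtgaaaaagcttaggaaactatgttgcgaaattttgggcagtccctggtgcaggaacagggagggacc

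In Tnip1 the κB match spanned positions -58 to -47 relative to the start and read the same on both strands. The Tlr2 match spanned -173 to -163. Cxcl10 held 2 κB matches, at -159 to -150 and at -103 to -94, and an AP-1 match at -74 to -68. The Casp4 match lay at -93 to -83. AP-1 was found in 5 of the 23 windows (21.7%), against 7.81% of all RefSeq start windows and 5.00% of those under a peak. Ascl5, Hal and Uba7 carried it in their upstream bases. The shorter κB form, which overlaps the consensus, was in 3 windows (13.0% against 1.25%). C/EBP (TTGCNNAA) was in 5 (21.7% against 10.8%), STAT (TTCNNNGAA) in 4 (17.4% against 8.30%) and the E-box CAGCTG in 5 (21.7% against 16.3%). The antioxidant response element bound by NRF2 (TGACNNNGC) was in 3 windows, 13.0% against 12.4%. SOX (ACAAAG) was in 3 (13.0% against 18.7%), IRF (GAAANNGAA) in 2 (8.70% against 8.56%) and TEAD (GGAATG) in 2 (8.70% against 14.7%). The palindromic NFI motif was in 0 of the 23 and in 0.0365% of all windows. The GC box GGGCGG was in 7 (30.4%), near the 35.7% of all windows and below the 65.5% of those under a peak. The median GC content of the upstream bases was 52.0% under members, 60.8% under all peaks and 52.4% over all windows. With 23 windows each share moves by several percentage points with 1 window, and a match is a description of letters only.

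The values that chose the members were as follows. The median member had a mean of 40.7 at 24 h and 121 with TNF. At 72 h these medians were 45.7 and 129. Median ratios were 2.81 at 24 h (2.00 to 40.6) and 2.63 at 72 h (2.00 to 44.5). The ratio was at least 3 at both times in 315 members, at least 4 in 165, at least 8 in 18 and at least 16 in 1. All 1356 passed the filter on low values, which kept 88919 peaks. In limma-trend on log2(value + 1), 1315 members (97.0%) were called higher with TNF at 24 h, where 7.06% of all peaks tested were called higher. At 72 h 1292 (95.3%) were called, against 6.24% of all peaks. Both member counts restate the choice of members. Members made up 39.0% of the 3246 peaks called higher at both times. Over all peaks, higher calls made up 53.0% of TNF calls at 72 h, and 39.0% when libraries were scaled by their total reads. Every TNF library lay above every untreated library of its time in 1347 members at 24 h and in 1349 at 72 h. The choice by ratio in these same libraries makes such separation likely, and its share over all peaks was not computed. The 72 h TNF mean exceeded the 24 h TNF mean in 836 members, a share not computed over all peaks. The ratio of TNF to untreated was larger at 72 h in 584 members. A difference in the TNF effect between the times was called in 0 members by limma-trend.

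**Figure D1:**
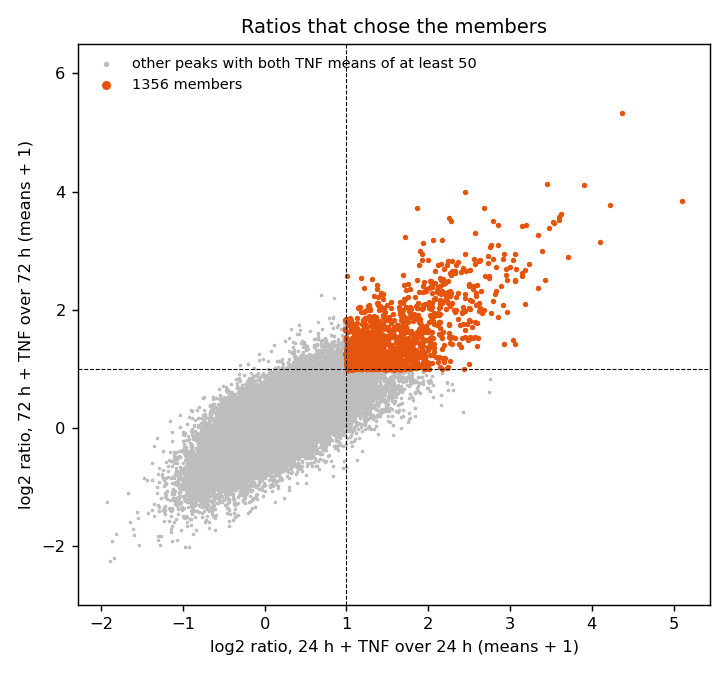
Each point is a peak with both TNF means of at least 50, the x axis gives the log2 ratio of the TNF mean over the untreated mean at 24 h and the y axis the same at 72 h, both with 1 added to each mean, and dashed lines mark a log2 ratio of 1. The 1356 members fill the upper right corner by construction, with 165 at ratios of at least 4 at both times.

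The threshold cut through a continuum. Just inside lay a peak 58.3 kb from Dnttip2, with ratios of 2.67 and 2.0006, and one 40.7 kb from Map3k7cl, with 2.50 and 2.0009. Just outside lay peaks inside Grik1 (2.06 and 1.9996) and inside Creb3l2 (2.18 and 1.9996). The choice was then repeated with one replicate number of the 4 groups left out, and the ratio was read in the left-out libraries. These selections held 1312, 1428 and 1386 peaks, of which 1110, 1140 and 1146 were members. The left-out TNF library exceeded the left-out untreated library in 98.0% to 99.8% of them, against 46.7% to 53.1% of all peaks. Median log2 ratios in the left-out libraries were 1.42 to 1.48 at 24 h and 1.24 to 1.42 at 72 h. A ratio of at least 2 was reached again by 67.1% to 79.1%.

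Before and without TNF, these were mostly weak sites. The median member had a mean of 29.7 in NSPs and 51.3 at 1 week, while the median over all peaks lay between 82.1 and 85.9 in every group. Library medians were 24.0, 31.8 and 30.9 in NSPs. They were 39.8, 38.4 and 44.3 at 24 h, and 45.0, 47.8 and 47.2 at 72 h. At 1 week they were 52.9, 49.1, 55.0 and 51.5. With TNF they were 116, 121 and 130 at 24 h and 135, 129 and 129 at 72 h. Members held 0.301% to 0.637% of the reads of untreated libraries and 1.38% to 1.64% of TNF libraries. The rule used the 24 h and 72 h libraries, so both gaps between TNF and untreated libraries there follow from the choice. NSPs and 1 week lay outside the rule. In bulk libraries, a site opened in more cells and one opened further per cell cannot be told apart. Reads in peaks ranged from 9640256 to 39349111 per library.

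**Figure D2:**
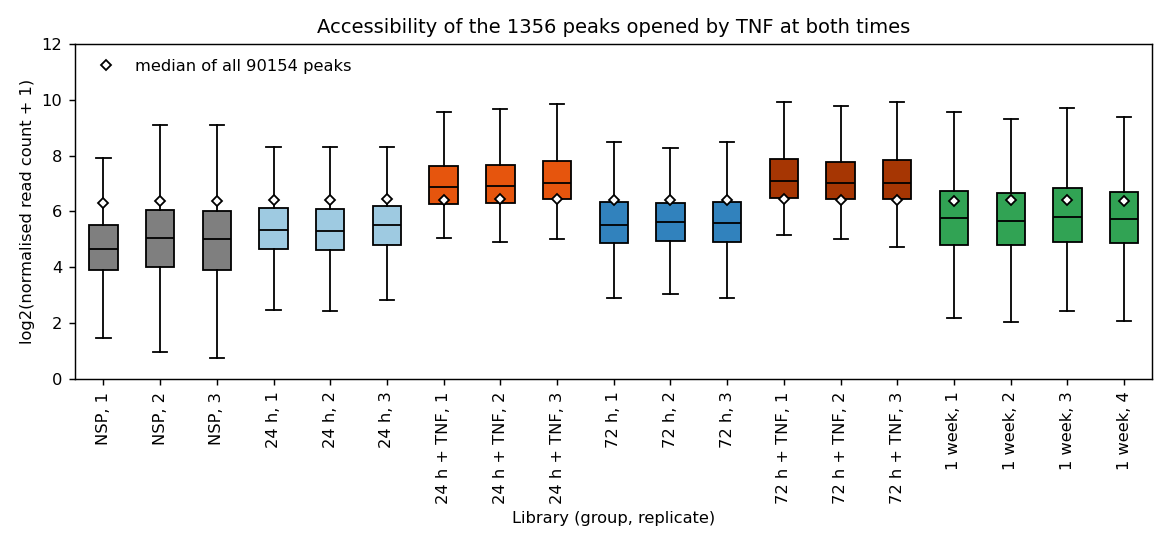
Boxes give the quartiles of log2(normalised read count + 1) over the 1356 members in each of the 19 libraries, whiskers reach 1.5 times the box height, and white diamonds mark the median of all 90154 peaks. Member medians lie above the diamond in the 6 TNF libraries and below it in the other 13. The rule used the 24 h and 72 h libraries, so the gap between them is by construction.

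Whether these regions also change during normal differentiation was asked by comparing 1 week with NSPs, since neither group entered the rule. Of the members, 709 (52.3%) were called higher at 1 week, against 33.7% of all peaks tested. Another 187 (13.8%) were called lower, against 33.6%. The median log2 change was 0.68 for members and 0.01 for all peaks. Among all peaks with both TNF means of at least 50, 36.4% were called higher and 28.7% lower. All 1-week libraries lay above all NSP libraries in 653 members (48.2%, against 31.3% of all peaks) and below them in 133 (9.81%, against 30.7%). The share called higher was 53.6% of the 1041 members whose smaller TNF ratio was between 2 and 3 and 47.3% of the 165 with at least 4. Library names of the 72 h and 1-week groups carry a tag, Luc, that NSP and 24 h names lack, so tag and group cannot be told apart here.

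**Figure D3:**
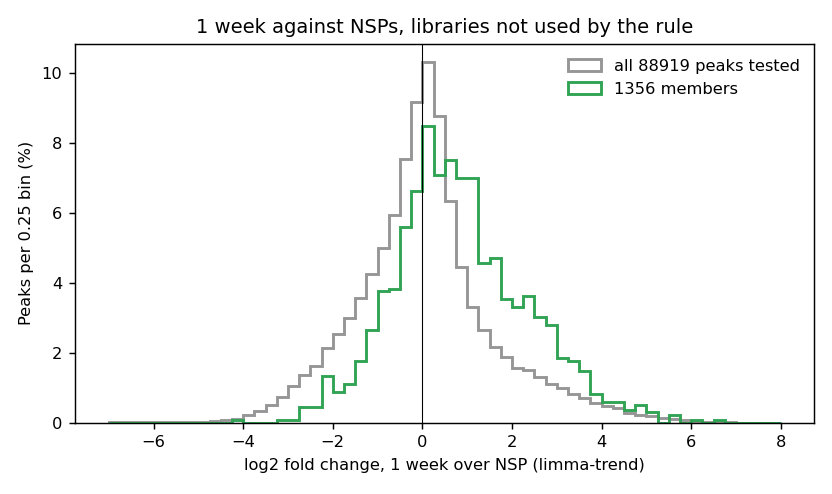
The x axis gives the limma-trend log2 fold change of 1 week over NSPs and the y axis the percentage of peaks in each bin of 0.25, for the 1356 members (green) and all 88919 peaks tested (grey). The members' curve lies to the right, with a median of 0.68 against 0.01.

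The 5 members with the smallest p in each direction show both courses. They were taken among called members whose NSP and 1-week libraries did not overlap, so that separation follows from the choice. A peak at chr16:22733930-22734430, 71.0 kb from the lens crystallin gene Crygs, read 15.8, 11.8 and 14.0 in NSPs and 731, 722, 887 and 738 at 1 week. It stood at 149, 121 and 175 at 24 h, and at 343, 395 and 410 with TNF. This site opened with differentiation, its level at 1 week passed that of every TNF library, and its log2 change from NSPs was 5.70 ± 0.14 (SE, adjusted p = 2.8e-23, limma-trend). Inside Ppm1h, which encodes a protein phosphatase, the NSP values of 11.7, 5.65 and 5.32 compare with 436, 400, 460 and 403 at 1 week (log2 change 5.71 ± 0.18, adjusted p = 1.9e-21). The 72 h TNF libraries of this peak, 706, 675 and 735, were higher still. Cpne8 at 55.2 kb (6.53), Anxa3 (4.63) and a peak 256 kb from Fut10 (3.57) behaved alike in direction. Cpne8 encodes a copine and Anxa3 an annexin, both calcium-dependent membrane-binding proteins.

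In the other direction, a peak 198 kb from Cxcr4, the receptor of the chemokine CXCL12, read 367, 310 and 356 in NSPs and 52.9, 36.6, 70.4 and 37.5 at 1 week. It stood at 372, 342 and 342 with TNF at 24 h and at 149, 201 and 151 without. TNF libraries at 24 h thus overlapped the NSP range, and the log2 change from NSPs to 1 week was -2.83 ± 0.19 (adjusted p = 7.5e-14, limma-trend). A peak 32.7 kb from Klhl42, a ubiquitin ligase adaptor, read 90.1, 138 and 204 at 72 h and 798, 786 and 945 with TNF. NSP libraries of that peak had read 710, 760 and 954, and the log2 change to 1 week was -2.70 ± 0.18. Inside Ngfr, the p75 neurotrophin receptor, the change was -2.26 ± 0.16. There the 24 h TNF libraries, at 469, 455 and 462, exceeded those of NSPs, at 164, 185 and 130. Peaks at Has2, a hyaluronan synthase (-1.99), and inside Creb5, a CREB family factor (-2.22), completed the 5.

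Set against the smaller of the 2 TNF means, the untreated end points divided the members into 4 classes, a split made after the values were seen. In 607 members (44.8%) both NSPs and 1 week stayed under 50% of that mean. Their median levels were 24.0 in NSPs, 30.6 at 1 week and 115 with TNF at either time. In 516 (38.1%) only 1 week reached 50%, with medians of 24.7 in NSPs, 100 at 1 week, 126 with TNF at 24 h and 157 with TNF at 72 h. NSPs alone reached it in 158 (11.7%), with medians of 78.8 in NSPs, 33.0 at 1 week and 147 with TNF at 24 h. Both did in 75 (5.53%). Over all 6 groups, the highest mean was that of 72 h with TNF in 804 members, 24 h with TNF in 502, 1 week in 35 and NSPs in 15. The rule keeps the untreated 24 h and 72 h groups from being highest, so the lead of TNF groups follows in part from the choice. Shares over all peaks were not computed.

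The largest ratios were seen away from gene starts. At chr16:3723209-3723709, 5.33 kb upstream of Mefv, which encodes the inflammasome protein pyrin, untreated libraries read 12.5, 8.85 and 16.0 at 24 h and 6.43, 5.98 and 14.0 at 72 h. With TNF they read 245, 298 and 287 at 24 h and 426, 349 and 402 at 72 h. The groups were far apart, with ratios of 22.2 and 44.5, and NSP libraries were at 5.26, 8.01 and 7.97. A peak inside Stx8, a SNARE protein of endosomes, had the largest 24 h ratio, 40.6. Its untreated 24 h values, 5.69, 1.48 and 8.62, rest on a handful of reads each. At chr1:138037388-138037888, 25.2 kb outside Ptprc, the gene of the leukocyte antigen CD45, untreated values were 37.6, 36.9 and 64.0 at 24 h and TNF values 667, 747 and 697. The corresponding 72 h values were 12.9, 39.5 and 43.3 without and 544, 613 and 548 with TNF. Ptprc itself had no peak within 1 kb of a gene end, and neither did the microglial genes Aif1, Cx3cr1, Csf1r and Itgam. Over the 8 microglial markers, 3 (P2ry12, Tmem119 and Spi1) had such a peak. The median of these 3 was 83.2 at 24 h and 74.8 with TNF, and 62.3 at 72 h and 64.2 with TNF. The remaining peaks among the 10 with the largest smaller ratio lay inside Lrrc7 (13.5 and 13.1), Gm8439 (14.6 and 13.1) and Ak5 (12.0 and 11.4). Others lay 75.7 kb from Cd28 (13.0 and 11.9), 31.2 kb from H2az1 (11.5 and 18.8), 142 kb from Serp2 (20.1 and 14.6) and 166 kb from Rnd3 (13.4 and 12.9). Untreated values of several of these peaks were low, and their ratios rose most when the highest untreated library was left out. Without replicate 1 of the untreated libraries, Cd28 reached 24.1 at 24 h and 22.3 at 72 h, and H2az1 reached 40.5 at 72 h. Rnd3 reached 28.6 without 24 h replicate 3 and 20.7 without 72 h replicate 2, and Gm8439 reached 26.9 without 24 h replicate 3. No ratio of the 10 fell below 8.81 when 1 library was left out. Of these 10, 7 were not called between NSPs and 1 week, while Mefv (1.47), Stx8 (1.65) and Lrrc7 (2.30) were higher at 1 week on the log2 scale.

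By level rather than ratio, the strongest members were a different set. The peak inside Asb6 at chr2:30823214-30823714 read 726, 652 and 596 at 24 h and 1724, 2020 and 1750 with TNF. At 72 h it read 309, 281 and 366 without and 1029, 1184 and 1199 with TNF. NSPs stood at 695, 1040 and 1026, so it lost accessibility over untreated differentiation (1 week against NSPs -1.29 ± 0.13). Inside Jmjd4 the levels were 1531 ± 55.4 (SD, n = 3) with TNF at 24 h, 2352 ± 172 (n = 3) with TNF at 72 h and 2456 ± 167 (n = 4) at 1 week. Peaks inside Rhbdf2 and Rbks, and one 103 kb from Trib1 with no gene within 100 kb, were the other three. Rbks rose without TNF from 67.5 ± 31.8 in NSPs (n = 3) to 1998 ± 142 at 1 week (n = 4), above both its TNF means of 1011 and 1387.

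Members were sparse at gene ends. The centre lay within 1 kb of either end of a protein-coding gene in 40 members (2.95%), against 14.9% of all peaks and 20.5% of those with both TNF means of at least 50. The median distance to a gene end was 28.7 kb, against 20.1 kb over all peaks. Inside a gene lay 47.6% of members and 53.2% of all peaks. Another 14.0% of members were over 100 kb from any protein-coding gene, against 11.1%. Members were also near one another. Another member lay within 20 kb in 130 (9.59%), while 3.56% of all peaks had a member that near. They formed 58 runs and 1284 separate loci, so members are not all independent. In 8 runs there were at least 3. The other peaks within 20 kb of a member were called higher with TNF in 10.4% of cases at 24 h and 9.47% at 72 h, against 5.49% and 4.70% of peaks with no member that near.

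The longest run held 7 members within 33.5 kb on chr12:55433766-55467260, between Psma6, a proteasome subunit, and Nfkbia, which encodes the NF-κB inhibitor IκBα. Measured downstream from the Nfkbia start, members lay between 25.6 and 58.6 kb. At 26.2 kb the libraries read 268, 313 and 301 at 24 h and 576, 595 and 681 with TNF. At 72 h they read 205, 191 and 282 without and 582, 624 and 514 with TNF. NSP values of 641, 469 and 448 lay near the TNF range and above every untreated 24 h and 72 h library. Its neighbour at 25.6 kb had ratios of 2.99 and 2.94. At 49.3 kb the values were 365, 310 and 365 at 24 h against 866, 894 and 871 with TNF, and 398, 392 and 421 at 72 h against 975, 978 and 976. NSP and 1-week libraries of that peak, 305 to 443, overlapped the untreated range. The steepest of the run lay at 58.6 kb, with 32.0 ± 8.48 at 24 h and 132 ± 15.2 with TNF, and 28.9 ± 4.78 at 72 h and 153 ± 10.3 with TNF (SD, n = 3 each). Within the run 3 further peaks were not members. The Nfkbia start peak, 0.170 kb downstream, measured 675 ± 72.7 at 24 h and 955 ± 84.6 with TNF (log2 change 0.50, adjusted p = 0.00192, limma-trend). At 72 h it measured 513 ± 32.4 and 912 ± 68.2 with TNF (0.83, adjusted p = 3.9e-06). It missed the 2-fold rule.

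**Figure D4:**
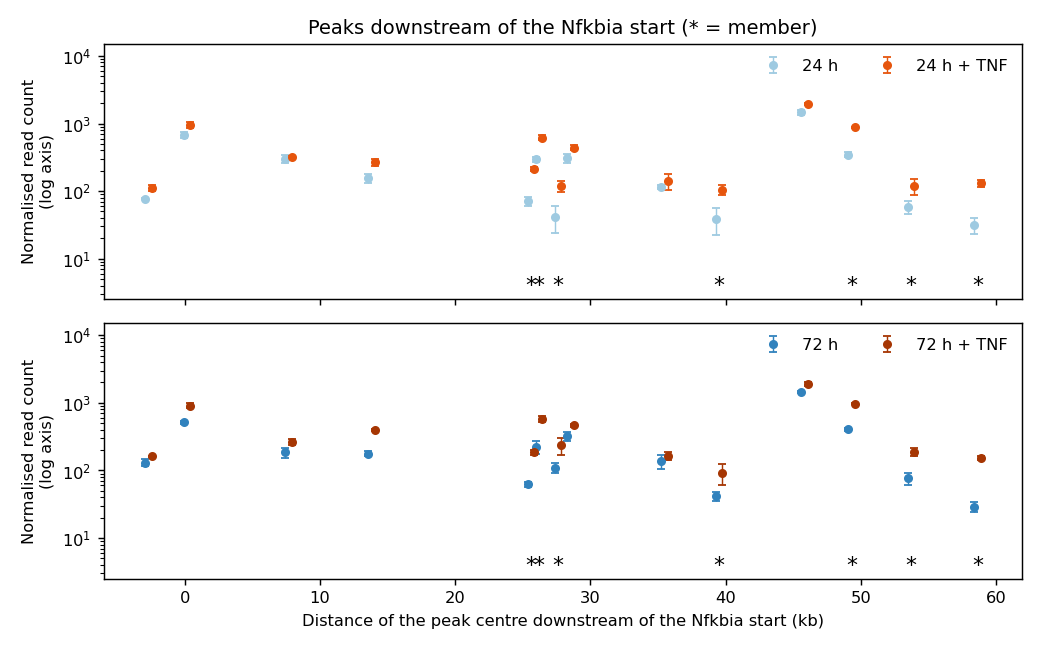
Points are group means of normalised read counts on a log axis with SD bars (n = 3), without TNF (blue) and with TNF (orange to brown), at 24 h in the upper and 72 h in the lower panel, against the distance of each peak downstream of the Nfkbia start in kb. Asterisks mark the 7 members, which lie between 25.6 and 58.6 kb.

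Other runs lay at immune genes and elsewhere. There were 4 members in 26.7 kb beside Ccl2, whose product attracts monocytes, and 4 in 17.2 kb at Sik1, a salt-inducible kinase. Runs of 3 lay at Ccl5 and Ccl9, at Traf2, at Tlr2, at Prr5l and at Anxa3. Of the 1356 members, 1166 were assigned to 1016 genes, by the gene that holds the centre or the nearest within 100 kb. Spata13, with 5, had the most. Assignment by position does not show which gene a region acts on.

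Among inhibitors and regulators of NF-κB, 13 of 142 peaks assigned to the 29 listed genes were members, at Nfkbia, Nfkbie, Bcl3, Tnfaip3, Tnip1, Traf2 and Birc2. With TNF, 30 peaks of the list (21.1%) were called higher and 2 lower at 24 h, and 40 (28.2%) and 3 at 72 h. Of all peaks, 7.06% and 6.24% were called higher and 3.53% and 5.55% lower, and 1.5% were members, and these shares are the background for the lists that follow. List counts include the members, which the same contrasts chose. The lists were also drawn with earlier results of these data known. An excess of any list over all peaks may therefore be partly built in. The list's median log2 change was 0.21 and 0.23, against -0.03 and 0.03 over all peaks. Tnip1, which encodes the A20-binding inhibitor ABIN1, had 2 members. At its start, shown above with its κB match, libraries read 10.2, 10.3 and 23.4 at 24 h and 65.4, 59.3 and 75.8 with TNF. At 72 h the values were 19.3, 20.3 and 19.1 without and 131, 140 and 143 with TNF. NSPs (6.43, 2.83 and 16.6) and 1 week (6.17, 7.79, 4.40 and 7.51) were as low as the untreated libraries. A second peak 1.32 kb into the gene reached 164 ± 16.1 and 360 ± 12.0 with TNF (SD, n = 3), ratios of 6.11 and 10.1. Inside Tnfaip3, the deubiquitinase A20, a peak 2.46 kb past the start had 6.14 ± 2.72 at 24 h against 63.6 ± 5.78 with TNF, and 9.97 ± 8.31 at 72 h against 69.1 ± 12.6. Nfkbie, which encodes IκBε, had a member 1.88 kb past its start, with ratios of 6.35 and 7.59. For Traf2, an adaptor of TNF receptors, a peak 2.67 kb upstream had ratios of 5.34 and 4.94. The start peaks of Birc2, Nfkbie and Traf2 were not called at either time, with log2 changes between -0.06 and 0.35, and that of Tnfaip3 was called at 72 h (0.59, adjusted p = 0.00189) and not at 24 h (0.25, adjusted p = 0.234).

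For cytokines and chemokines, 9 of 108 peaks were members, at Ccl2, Ccl5, Csf1, Cxcl1 and Il34. Over the list 18 peaks (16.7%) were called higher and 1 lower at 24 h, and 17 (15.7%) and 5 at 72 h, against 7.06% and 6.24% higher over all peaks (median log2 change 0.13 and 0.18). The peak 28.6 kb from Ccl2 read 21.6, 29.5 and 16.0 at 24 h and 215, 218 and 185 with TNF. At 72 h it read 38.6, 33.5 and 26.8 against 197, 226 and 202. NSP and 1-week libraries stayed between 17.9 and 35.3, in the untreated range. At 20.0 kb from Ccl5, a T cell and monocyte attractant, 24 h TNF libraries were spread widely, at 104, 176 and 80.0, and those of 72 h were 248, 238 and 220. Inside Il34, a ligand of the CSF1 receptor, the ratios were 5.84 and 5.55. The start of Cxcl10, an interferon-inducible chemokine, lies within the span of Art3 and was therefore assigned to Art3. There the values were 35.3, 39.8 and 39.4 at 24 h against 171, 110 and 141 with TNF, and 78.5, 104 and 51.0 at 72 h against 334, 304 and 347.

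Of the TNF receptors, innate sensors and death adaptors, 8 of 85 peaks were members, at Tlr2, Tlr4, Tnfrsf11b, Irak2 and Fadd. With TNF, 20 peaks of the list (23.5%) were called higher and 3 lower at 24 h, and 18 (21.2%) and 5 at 72 h, beside all-peak shares of 7.06% and 6.24% higher (median log2 change 0.22 and 0.12). Tlr2, a receptor of bacterial lipoproteins, had 3 members in 22.0 kb. The one 21.5 kb upstream averaged 129 ± 5.18 (SD, n = 3) at 24 h and read 822, 748 and 751 with TNF, and at 72 h it read 147, 151 and 161 against 693, 707 and 759. NSPs were lower, at 27.5, 24.5 and 19.9, and 1 week stood at 164, 192, 176 and 176 (log2 change 2.84 ± 0.13, adjusted p = 1.4e-17, limma-trend). Its start peak had smaller ratios, 2.27 and 2.94, and fell from 129 ± 13.6 in NSPs (n = 3) to 84.6 ± 20.7 at 1 week (n = 4; -0.63 ± 0.19, adjusted p = 0.00547). This call was lost with the title number as a replicate block, although it is not known whether the numbers pair the samples. At Tlr4, the lipopolysaccharide receptor, a peak 72.5 kb away had ratios of 4.75 and 4.89. Tnfrsf11b encodes osteoprotegerin, a decoy receptor, and its member at 34.6 kb had ratios of 8.67 and 8.06. Inside Irak2, a kinase of the Toll-like and interleukin 1 receptor pathways, they were 4.35 and 4.61.

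For the interferon response and antigen presentation, 7 of 93 peaks were members, at Irf1, Irf2, Irf8, Nlrc5, Tap2 and Ifnar2. The list had 19 peaks (20.4%) called higher and 1 lower at 24 h, and 20 (21.5%) and 1 at 72 h, against 7.06% and 6.24% of all peaks called higher (median log2 change 0.18 and 0.25). A peak 40.7 kb from Irf1, a transcription factor of interferon signalling, read 10.2, 4.43 and 8.62 at 24 h against 78.7, 69.0 and 70.6 with TNF. At 72 h it read 21.9, 5.98 and 20.4 against 114, 102 and 110. Inside Nlrc5, a transactivator of MHC class I genes, the 24 h values of 104, 76.7 and 121 compare with 301, 367 and 333, and those of 72 h, 92.6, 71.8 and 93.0, with 302, 312 and 301. Irf8 had one member 0.412 kb past its start, with ratios of 3.58 and 5.30, and one 90.8 kb away, with 4.90 and 6.30.

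Adhesion and matrix genes held 8 members of 125 peaks, among them peaks at Sele, Has2, Tnc, Adamts9 and Adamts20. Over the list 20 peaks (16.0%) were called higher and 4 lower at 24 h, and 21 (16.8%) and 5 at 72 h, against 7.06% and 6.24% of all peaks called higher (median log2 change 0.12 and 0.09). The member 38.8 kb upstream of Adamts20, a secreted metalloprotease, read 66.0, 47.2 and 51.7 at 24 h against 514, 475 and 491 with TNF. At 72 h it read 48.9, 65.8 and 44.6 against 586, 553 and 598, while NSPs (51.7 ± 6.22, n = 3) and 1 week (50.0 ± 11.3, n = 4) stayed at the untreated level. For Sele, the endothelial adhesion molecule E-selectin, the peak 17.0 kb upstream had ratios of 2.74 and 3.42. Inside Tnc, the matrix glycoprotein tenascin C, NSP libraries varied widely at 154, 323 and 443, and TNF values of 136 ± 9.04 and 113 ± 20.5 (SD, n = 3) stayed below them.

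The list of AP-1, C/EBP and STAT3 signalling genes, which also holds Smad3, had 7 members of 154 peaks (4.55%, against 1.5% of all peaks). They lay at Smad3, Junb, Cebpb and Il6st. Several of them were at Smad3, which is outside the named groups, so the list's shares are not those of these groups alone. The list had 35 peaks (22.7%) called higher and 2 lower at 24 h, and 21 (13.6%) and 3 at 72 h, where 7.06% and 6.24% of all peaks were called higher (median log2 change 0.19 and 0.12). Inside Smad3, a transducer of TGF-β signals, the strongest of its members read 261, 249 and 232 at 24 h against 836, 906 and 918 with TNF, and 196, 194 and 172 at 72 h against 813, 856 and 937. At Junb, an AP-1 subunit, a peak 2.46 kb upstream had ratios of 2.69 and 2.51. Of the 84 peaks assigned to the NRF2 and oxidative stress genes, 0 met the rule (1.5% of all peaks did). In that list 8 peaks (9.52%) were called higher and 5 lower at 24 h by limma-trend, and 3 (3.57%) and 8 at 72 h, against the 7.06% and 6.24% of all peaks called higher, with medians of -0.02 and 0.06 on the log2 scale.

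Reactive astrocyte genes held 12 members of 137 peaks, at C3, Lcn2, Steap4, Sbno2, Serpina3n, Cp, S1pr3, Cd109 and Tm4sf1. Over the list 35 peaks (25.5%) were called higher and 5 lower at 24 h, and 31 (22.6%) and 9 at 72 h, beside 7.06% and 6.24% higher over all peaks (median log2 change 0.15 and 0.18). The start peak of C3, the central complement component, read 12.5, 4.43 and 16.0 at 24 h and 71.6, 83.0 and 97.6 with TNF. Its 72 h values were 45.0, 49.0 and 48.4 against 259, 234 and 226. C3 was higher at 72 h than at 24 h without TNF as well, and 1 week (28.2, 28.8, 28.6 and 19.3) lay above NSPs (9.93, 3.77 and 7.31). Lcn2, which encodes the iron-siderophore carrier lipocalin 2, had its member at the start, with 29.6, 11.8 and 28.3 at 24 h against 64.6, 63.6 and 55.0 with TNF. At 72 h its values were 27.0, 33.5 and 38.2 against 105, 79.8 and 106. Steap4, a metalloreductase, had ratios of 3.04 and 2.96 at its start. Sbno2, a transcriptional regulator downstream of interleukin 10, had members 1.71 and 5.06 kb upstream of one of its starts, with ratios of 6.36 and 4.36 and of 4.80 and 3.05. Both also rose over untreated differentiation (log2 changes 3.12 ± 0.34 and 3.15 ± 0.18 from NSPs to 1 week).

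Of 276 peaks assigned to astrocyte genes, 5 (1.81%) were members, at Aldh1l1, Gja1, Slc1a3 and Slc4a4, against 1.5% of all peaks. With TNF, 20 peaks (7.25%) were called higher and 20 lower at 24 h, and 14 (5.07%) and 25 at 72 h, against 7.06% and 6.24% of all peaks called higher (median log2 change -0.08 and -0.05). Inside Aldh1l1, a folate enzyme used as an astrocyte marker, the member had ratios of 6.26 and 3.53 and was lower at 1 week than in NSPs (-1.73 ± 0.31). The start peaks of Aldh1l1, Gja1 and Slc1a3 were not called with TNF. As a check of the labelled cell type, 7 of 8 progenitor and 7 of 8 astrocyte markers had a peak within 1 kb of a gene end. The median over the 7 astrocyte peaks was 251 in NSPs, 241 at 24 h, 270 at 72 h and 250 at 1 week. Over the 7 progenitor peaks it was 704, 418, 334 and 471 in the same order. Gja1 stood at 91.8 in NSPs and 148 at 1 week, Slc1a3 at 251 and 330, and Aldoc at 532 and 561. By contrast, S100b (562 and 178), Slc1a2 (319 and 250) and Aldh1l1 (89.3 and 68.1) were lower at 1 week. The Gfap peak stood at 108 in NSPs, 489 at 24 h, 529 at 72 h and 258 at 1 week. It was at 369 with TNF at 24 h and at 246 with TNF at 72 h. None of the markers' gene-end peaks was a member, but only 40 of all 13452 peaks within 1 kb of a gene end were.

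The remaining start peaks among members, named after their values were seen, belong to genes of several kinds. Casp4, an inflammatory caspase that senses lipopolysaccharide, read 26.2, 23.6 and 37.0 at 24 h against 98.2, 89.4 and 176 with TNF, and 27.0, 15.6 and 17.8 at 72 h against 82.3, 75.4 and 72.0. Uba7, the activating enzyme of ISG15 conjugation, had ratios of 2.48 and 2.16. It was not called at 72 h (adjusted p = 0.0575, limma-trend), where its TNF libraries read 112, 87.2 and 57.6. C1s1, a protease of the classical complement pathway, had ratios of 2.13 and 2.67, and Ifit1bl2, an interferon-induced family member, of 2.08 and 2.21. Znrf1 (4.14 and 4.07), a ubiquitin ligase, and Acot7 (3.30 and 2.67), an acyl-CoA thioesterase, had the highest TNF levels of the start peaks. Nupr1, a stress-induced chromatin protein, stood at 75.4 ± 7.81 without and 163 ± 3.75 with TNF at 24 h (SD, n = 3 each), and its 72 h ratio was 2.87. The rest lay at Ascl5, Hal, Spata13, S100a3, Cavin4 and the predicted or non-coding genes Gm30104, Gm30011, Gm13523, Gm38646 and 4930554I06Rik.

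**Figure D5:**
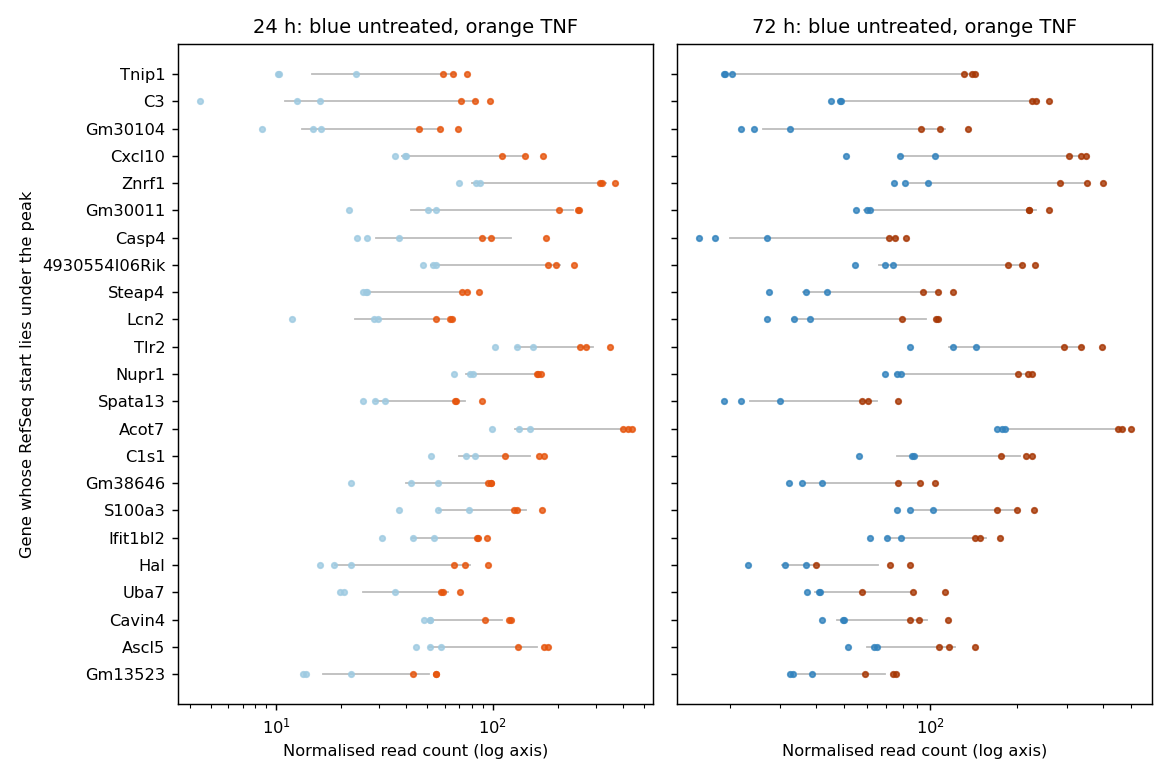
Each row is one of the 23 members at a RefSeq start, each point a library, and the x axis the normalised read count on a log axis, at 24 h on the left and 72 h on the right, with untreated libraries in blue and TNF libraries in orange or brown joined by a grey line between the group means. TNF libraries lie to the right by construction, with ratios at 72 h from 2.01 at Gm13523 to 7.06 at Tnip1.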

How the data were processed

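The series measured chromatin accessibility by ATAC-seq in 19 libraries, grouped by their sample titles. Per the study's methods, the authors used Trim Galore for trimming, Bowtie2 for alignment, SAMtools to discard mitochondrial reads and MACS for peaks, and the submitters' processing notes name MACS2 and mm10. Versions, duplicate treatment and transposase shift are not given in the sources used here. The deposited table holds a normalised signal per peak and library. In every library 100% of values were whole multiples, within 0.01, of the lowest value, so reads divided by a size factor were recovered, with no value under 1 read. A value of 1 read may be a floor.

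Group means of the deposited signal chose the members. The planned fallback for normalised values was used: limma-trend (limma 3.58.1, R 4.3.3) on log2(value + 1) over all 19 libraries with a mean per group, for peaks kept by filterByExpr of edgeR 4.0.16 (minimum count 10 on the recovered reads, 88919 of 90154). Fold changes are on that scale. P-values were two-sided and Benjamini-Hochberg adjusted over these peaks, with calls under 0.05. Only 1 week against NSPs compares groups that the rule did not use. Its estimate of the spread still draws on all 19 libraries. Among peaks with both TNF means of at least 50, 36.4% were called higher and 28.7% lower, against 33.7% and 33.6% of all peaks. The level part of the rule alone thus moved these shares. The fit was tested on simulated data that had the same spread setting for every peak, and nothing here rests on that outcome. Members and gene lists were chosen with earlier results of these data known. Named peaks were the 10 with the largest smaller ratio, the 5 highest with TNF, those beside the threshold and the longest run. Up to 4 per gene list were added. For 1 week against NSPs, the 5 with the smallest p in each direction were taken among called members with no overlap between groups. Genes and sequences are from RefSeq (GRCm38.p6, the assembly of mm10). The table does not say whether starts count from 0 or 1, and coordinates are given as deposited. Exons and introns were not assigned. No 2 libraries held identical values.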

Additional observations from a re-analysis of the deposited data

Results flagged for a closer look

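The 1-week group, with 4 libraries, was searched for a library far from the other three in 86 sets of values, the named peaks and the median over members. Chance alone flags about 1 in 20 such groups, and 8 sets were picked out here. Library 1 stood apart at the Mefv peak, at 30.0. Library 2 did at the peak 166 kb from Rnd3, at 18.7. Library 3 was the distant one at 4 peaks: near Trib1 (1470), near Crygs (887), at the Cxcl10 start (81.4) and inside Irf8 (15.4). Library 4 was at the C3 start (19.3) and at the member 53.7 kb downstream of the Nfkbia start (60.0). The median over members flagged no library.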

How the results depend on the processing

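With a ratio of 1.5 the rule chose 4042 peaks and with 3 it chose 315. Requiring TNF means of at least 100 left 744. Leaving out libraries gave 1280 to 1428 peaks, of which at least 1110 were members. Within 0.5 kb of a gene end lay 1.99% of members and within 2 kb 6.19%. Another member lay within 10 kb in 7.23% and within 40 kb in 14.9%. The count called higher at 1 week than in NSPs was 667 to 706 without single libraries, and the count called lower 152 to 232, highest without NSP replicate 1. Members called higher with TNF numbered 1137 to 1246 at 24 h and 1116 to 1171 at 72 h without single libraries. Correlations of deviations were -0.03 to 0.11 between same-numbered libraries and -0.07 to 0.04 between differently numbered ones. Values this small do not settle whether title numbers pair the samples. With a replicate block the counts were 593 higher and 140 lower at 1 week, 1356 at 24 h and 1355 at 72 h. A block by the numbers in the 72 h library names, chosen after seeing the data, gave 1307. Other pseudocounts, scalings, edgeR, DESeq2, no filter and fits of the compared groups alone left these 4 counts within 1.5 times. Over all peaks, calls with TNF numbered 6274 higher and 3136 lower at 24 h and 5551 and 4932 at 72 h, against 8467 and 5750, and 8739 and 7686, when only the compared groups were fitted. With the block they were 9307 and 6801 at 24 h and 9773 and 7925 at 72 h. For single named peaks no change reversed under any alternative run. A call was lost in 16 of the refits at 24 h, in 31 at 72 h, where 7 gained one, and in 34 of those of 1 week against NSPs, where the Tlr2 start and Stx8 lost it with the block. The motif alternatives over whole peaks were not run, as they need a genome.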
